A study of Mus musculus with 6 samples.

Results

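The lysosome is the acidic compartment in which cells break down proteins, lipids and sugars. Soluble hydrolases do the digestion, heavily glycosylated membrane proteins line the compartment, and a proton pump, the V-type ATPase, keeps it acidic. The pump has a cytosolic sector, V1, which splits ATP, and a membrane sector, V0, which carries the protons. In the brain, lysosomes serve neurons and are abundant in microglia, the resident phagocytes, which take up material around amyloid plaques.

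The genes described here are the transcripts of that machinery. They are 23 genes whose mouse symbol starts with Atp6v and 22 named genes for hydrolases, membrane proteins, a calcium channel and a transcription factor, which makes 45 genes of the 47728 read from the deposited table. Pseudogenes were left out of them, which removed 2 copies of Atp6v0c. They were measured by RNA sequencing of flash-frozen cerebral cortex in 3 libraries of FAD5x mice and 3 of C57BL/6 mice as Control. FAD5x is a model of Alzheimer's disease, and the 5xFAD line is known to express human transgenes with familial mutations in neurons under the Thy1 promoter. The labels name no age, no sex and no other treatment.

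Total counts were 17363946 to 24137936 per library, and markers of cortical excitatory neurons were detected for all 8 genes listed, led by Slc17a7. Nothing in the labels ties each library to a mouse of its own, and the spread behind every p-value may in part be technical. The names of FAD5x libraries 1 and 2 are alike, and the labels do not say whether they share an animal. They were counted as 2 samples because the labels list them so and their counts were not one library deposited again (chi-square over degrees of freedom 62.8, where the other pairs within a group had 20.03 to 59.7). In Control replicate 1, Xist, transcribed from the inactive X chromosome of females, was at 3 counts and 4 Y-linked genes summed to 3124, where Xist was at 10346 to 22631 elsewhere and the Y-linked sum reached 9 at most. The Control libraries thus came from more than 1 mouse, and the labels mention no sex. In the 3 FAD5x libraries Xist was at 11632 to 22631 counts and the Y-linked sum at 0. By these genes Control included a male library and FAD5x did not, and the part of sex in the differences was not tested. Levels below are normalised CPM, each library's counts scaled to a common total. Every fold change divides FAD5x by Control and is given in log2 units with a standard error (SE), from edgeR's quasi-likelihood test with Benjamini-Hochberg adjustment over all 17074 tested genes, and a gene was called at an adjusted p below 0.05.

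Lysosomal transcripts fell into 2 patterns. The 22 named genes leaned higher in FAD5x cortex, led by the phagocyte genes Cd68 and Laptm5, but edgeR called 0 of them, with FAD5x replicate 2 close to Control. The proton pump genes stayed near Control, and 1 of them, Atp6v1g1, rose. All 22 named genes and 17 of the 23 Atp6v genes passed the filter on low counts. Across these 39 tested genes, 1 was called higher and 0 lower by edgeR, against 1.76% of all tested genes called higher, 1.39% called lower and 3.15% in either direction. At an unadjusted p below 0.05, 8 were higher and 1 lower, against 11.2% and 10.1% of all tested genes. DESeq2 called 7 higher and 0 lower, where it called 4.47% and 4.23% of all genes. Limma-voom called 0 in either direction, where it called 1.33% higher and 1.24% lower. With no filter on low counts, edgeR called 3 lysosomal genes higher and 0 lower, against 1.9% and 1.62% of all genes. Their median log2 fold change was 0.17, beside 0.02 over all tested genes, and 33 of 39 were above 0, or 84.6% beside 51.5%.

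**Figure D1:**
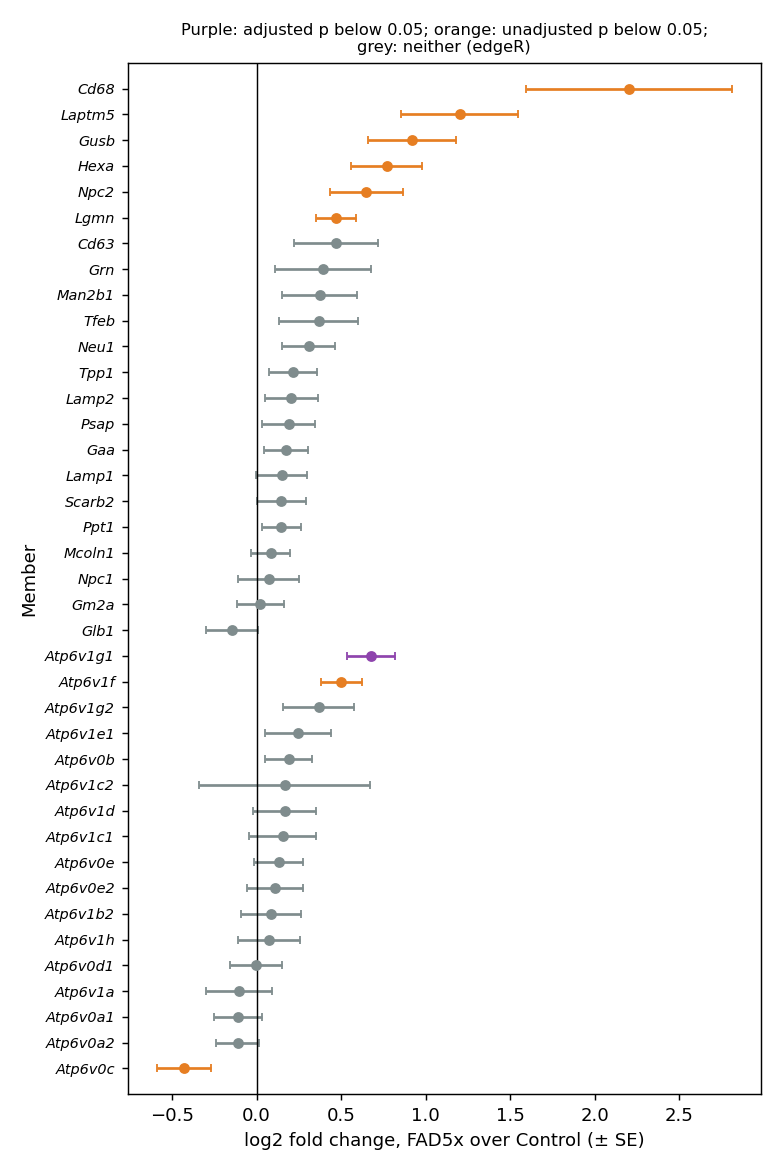
Log2 fold change of the 39 tested lysosomal genes, FAD5x over Control, with the SE as bars; named genes stand above the Atp6v genes. Cd68 lies farthest right at 2.20, Atp6v0c farthest left at -0.43, and Atp6v1g1 alone is called.

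Cd68 and Laptm5 had the largest differences of the set. Cd68 encodes macrosialin, a LAMP-family glycoprotein of macrophage and microglial lysosomes. It stood at 49.0, 8.19 and 33.7 CPM in FAD5x replicates 1 to 3, against 5.78, 8.71 and 5.25 CPM in Control 1 to 3. FAD5x replicates 1 and 3 were far above every Control library, and FAD5x replicate 2 lay within the Control range. The mean was 30.3 ± 20.6 CPM in FAD5x, against 6.58 ± 1.86 CPM in Control (SD, n = 3 each), or log2 2.20 ± 0.61, which missed the threshold (edgeR adjusted p = 0.108). Laptm5 encodes a lysosomal transmembrane protein of blood-derived and microglial cells. It had 139, 54.7 and 112 CPM in FAD5x, against 33.1, 57.4 and 42.1 CPM in Control, again with FAD5x replicate 2 among the Control libraries. Its log2 fold change was 1.20 ± 0.35 (edgeR adjusted p = 0.109). Without FAD5x replicate 2 both were called, Cd68 at 2.66 ± 0.25 (adjusted p = 0.00103) and Laptm5 at 1.51 ± 0.22 (adjusted p = 0.00932). Leaving out single libraries gave 1.67 to 2.66 for Cd68 and 0.91 to 1.51 for Laptm5, with neither called without any other library.

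**Figure D2:**
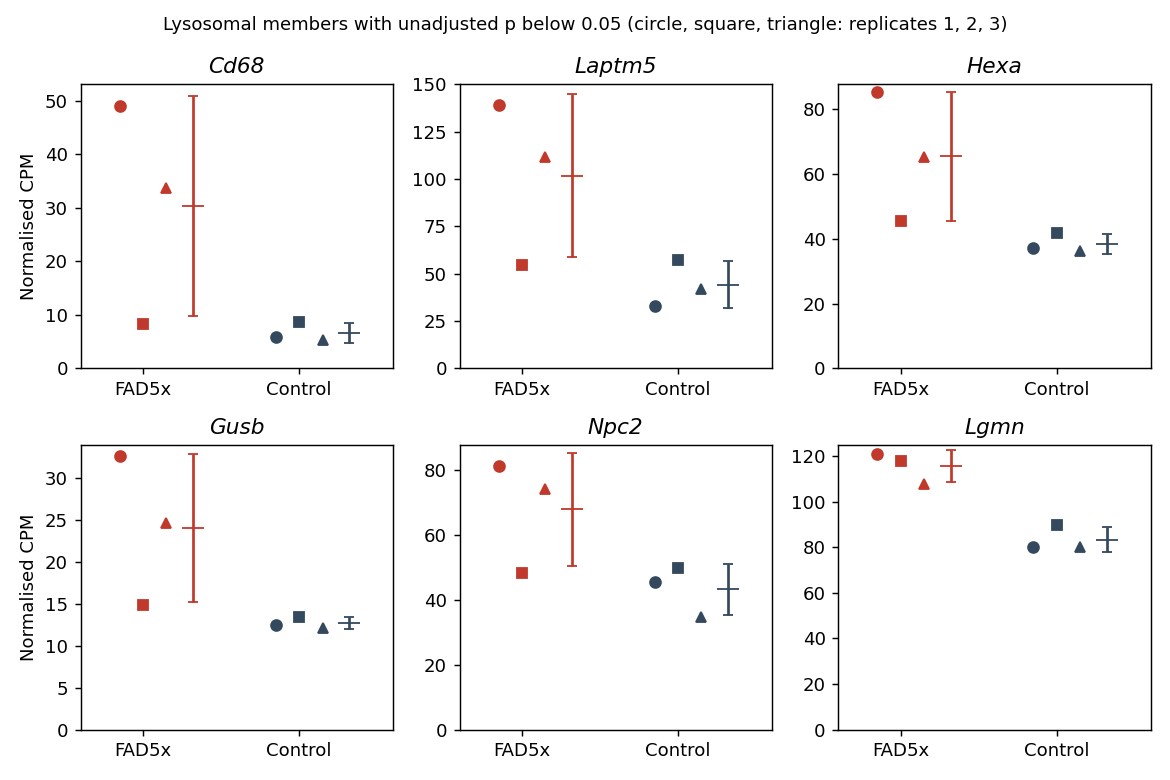
Normalised CPM of the 6 named lysosomal genes with an unadjusted p below 0.05, by library, FAD5x left and Control right; circles, squares and triangles are replicates 1, 2 and 3, and the bar beside each group is its mean and SD. The square of FAD5x replicate 2 lies near or among the Control points for Cd68, Laptm5 and Npc2, and all 3 FAD5x points lie above Control for Hexa, Gusb and Lgmn.

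Among the 12 hydrolases, activators and progranulin, edgeR called 0 in either direction, with 3 higher and 0 lower at an unadjusted p below 0.05. DESeq2 called 3 higher and limma-voom 0. Their median log2 fold change was 0.26, and 11 of 12 were above 0. Hexa, the alpha subunit of beta-hexosaminidase, which degrades gangliosides, had 85.5, 45.6 and 65.3 CPM in FAD5x, against 37.2, 41.8 and 36.2 CPM in Control. Gusb, beta-glucuronidase, had 32.6, 14.9 and 24.6 CPM in FAD5x, against 12.5, 13.5 and 12.1 CPM in Control. In both genes every FAD5x library was above every Control library, with FAD5x replicate 2 only slightly above. The log2 fold change was 0.77 ± 0.21 for Hexa (edgeR adjusted p = 0.0942) and 0.92 ± 0.26 for Gusb (edgeR adjusted p = 0.0996). Without FAD5x replicate 2 both passed, at 0.98 for Hexa (adjusted p = 0.00817) and 1.18 for Gusb (adjusted p = 0.00639). Leaving out single libraries gave 0.53 to 0.98 for Hexa and 0.63 to 1.18 for Gusb.

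In Lgmn the 3 FAD5x libraries lay close together. It encodes legumain, the asparaginyl endopeptidase that also processes cathepsins. It had 121, 118 and 108 CPM in FAD5x, against 80.04, 89.8 and 80.3 CPM in Control, so the groups did not overlap and FAD5x replicate 2 did not stand apart. The mean was 116 ± 7.02 CPM in FAD5x, against 83.4 ± 5.56 CPM in Control (SD, n = 3 each), a log2 fold change of 0.47 ± 0.12 (edgeR adjusted p = 0.0741, and 0.0125 by DESeq2). Leaving out single libraries gave 0.44 to 0.53.

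Prosaposin was the most abundant named transcript per length. Psap encodes the precursor of the saposins, which present sphingolipids to their hydrolases. It had 1390.5, 1594 and 1295 CPM in FAD5x, against 1238, 1245 and 1265 CPM in Control. The groups did not overlap, with FAD5x higher, as in 4 of the 22 named genes, or 18.2%, beside 14.1% of all tested genes. The difference was small, with a log2 fold change of 0.19 ± 0.16 (edgeR adjusted p = 0.534). Per kilobase of exon, on the same scale, Psap stood at 520 ± 55.7 in FAD5x, against 455 ± 4.98 in Control. The next named transcript was Lamp1 at 122 ± 18.6 in FAD5x, against 111 ± 7.08 in Control, followed by Gaa at 49.7 ± 4.73 in FAD5x, against 44.1 ± 0.979 in Control, and Lgmn at 49.8 ± 3.02 in FAD5x, against 35.9 ± 2.39 in Control, which did not differ from Gaa beyond their spread in FAD5x.

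The other hydrolase genes overlapped between groups. Grn, progranulin, a lysosomal and secreted regulator of microglia, had 100.04, 41.9 and 79.0 CPM in FAD5x, against 53.3, 63.4 and 51.3 CPM in Control. FAD5x replicate 2 was thus below every Control library, while FAD5x replicates 1 and 3 were above. Its log2 fold change was 0.40 ± 0.28 (edgeR adjusted p = 0.476), and without FAD5x replicate 2 it was 0.68 ± 0.15 (adjusted p = 0.0321). Without single libraries it ran from 0.11 to 0.68. Man2b1, lysosomal alpha-mannosidase, had the same order, with a log2 fold change of 0.37 ± 0.22 (edgeR adjusted p = 0.384). Without FAD5x replicate 2 it was 0.60 ± 0.14 (adjusted p = 0.0482), and without single libraries it ran from 0.11 to 0.60. Neu1, the lysosomal sialidase, was highest in FAD5x replicate 2 instead, with 41.1, 59.2 and 50.9 CPM in FAD5x, against 39.1, 37.3 and 45.7 CPM in Control. Tpp1, Gaa, Ppt1 and Gm2a, which encode a tripeptidyl peptidase, acid alpha-glucosidase, a palmitoyl-protein thioesterase and the ganglioside activator protein, had log2 fold changes between 0.02 and 0.21. Glb1, acid beta-galactosidase, was the 1 named gene below 0, at -0.15 ± 0.16 (edgeR adjusted p = 0.636).

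Among the 8 genes for membrane proteins and cholesterol export, edgeR called 0 in either direction, with 3 higher and 0 lower at an unadjusted p below 0.05. The 3 higher were 37.5%, beside 11.2% of all tested genes. DESeq2 called 2 higher and limma-voom 0. Their median log2 fold change was 0.34, and all 8 were above 0. Npc2, the soluble protein that hands cholesterol to the exporter Npc1, had 81.2, 48.3 and 74.1 CPM in FAD5x, against 45.6, 49.7 and 34.6 CPM in Control. FAD5x replicate 2 lay within the Control range. The log2 fold change of Npc2 was 0.65 ± 0.22 (edgeR adjusted p = 0.141), and 0.85 ± 0.16 without FAD5x replicate 2 (adjusted p = 0.0206). Npc1 itself was at 0.07 ± 0.18 (edgeR adjusted p = 0.858). Cd63, a tetraspanin of late endosomes, had 74.8, 38.3 and 70.6 CPM in FAD5x, against 47.9, 47.8 and 37.0 CPM in Control. It stood at 0.47 ± 0.25 (edgeR adjusted p = 0.326), and without FAD5x replicate 2 at 0.72 ± 0.15 (adjusted p = 0.0252). Leaving out single libraries gave 0.50 to 0.85 for Npc2 and 0.30 to 0.72 for Cd63.

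The structural membrane proteins differed little between the groups. Lamp1 and Lamp2, the most abundant glycoproteins of the lysosomal membrane, had log2 fold changes of 0.15 ± 0.15 and 0.21 ± 0.16 (edgeR adjusted p = 0.625 and 0.502), and Scarb2, the receptor that carries glucocerebrosidase to lysosomes, 0.15 ± 0.14 (0.605). Lamp1 had 384, 289 and 310 CPM in FAD5x, against 286, 317 and 283 CPM in Control. Lamp2 is X-linked, and its log2 fold change was 0.18 without Control replicate 1.

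Tfeb and Mcoln1 stand for control of the compartment. Tfeb encodes a transcription factor that drives lysosomal genes, and Mcoln1 the lysosomal calcium channel mucolipin. Tfeb had 11.7, 6.73 and 10.3 CPM in FAD5x, against 7.71, 7.81 and 6.76 CPM in Control, with FAD5x replicate 2 the lowest of all 6 libraries. Its log2 fold change was 0.37 ± 0.24 (edgeR adjusted p = 0.418). Mcoln1 had 64.3, 58.7 and 67.3 CPM in FAD5x, against 58.6, 56.7 and 64.1 CPM in Control, at 0.08 ± 0.12 (edgeR adjusted p = 0.722). Neither was called under any of the 14 alternatives tried.

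The factor that Tfeb encodes binds the E-box CACGTG and longer forms of it in promoters of lysosomal genes, so the promoters of these genes were searched for it. Promoter sequences, 250 bases before to 50 bases after the transcription start, came from RefSeq on GRCm38.p6 and were found for 38 of the 45 genes. CACGTG, which reads the same on both strands, was present for 9 of these 38 genes, or 23.7%, beside 8.09% of 27025 genes with a promoter in the same table. The forms TCACGTG and CACGTGA, which contain it, were present for the same number, 9 of 38, beside 4.29% of all genes. The longer palindromic CLEAR consensus was present for 0 of 38, beside 0.370% of all. The 9 genes were Lamp1, Mcoln1, Gaa, Glb1, Lgmn, Atp6v0b, Atp6v0d1, Atp6v0e and Atp6v1a. Lgmn held it in 1 of its 2 listed promoters. Their median log2 fold change was 0.13, between -0.15 and 0.47, and that of the 24 tested genes whose promoter had no match was 0.28, between -0.43 and 2.20. A match describes the letters of these windows and no binding.

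The 3 promoters with more than 1 copy are shown because they hold the motif most densely, while their transcripts overlapped between the groups. Capitals mark CACGTG. The windows are chr8:13158911-13159210 on the plus strand for Lamp1, chr8:3500269-3500568 on the plus strand for Mcoln1 and chr4:117887280-117887579 on the minus strand for Atp6v0b, each written 5′ to 3′ along its gene.
Lamp1: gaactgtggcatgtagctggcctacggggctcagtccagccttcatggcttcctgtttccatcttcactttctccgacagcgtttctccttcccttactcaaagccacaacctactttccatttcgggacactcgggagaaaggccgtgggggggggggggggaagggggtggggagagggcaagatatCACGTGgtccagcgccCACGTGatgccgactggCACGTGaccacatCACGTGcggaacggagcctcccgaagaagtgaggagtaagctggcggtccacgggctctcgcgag
Mcoln1: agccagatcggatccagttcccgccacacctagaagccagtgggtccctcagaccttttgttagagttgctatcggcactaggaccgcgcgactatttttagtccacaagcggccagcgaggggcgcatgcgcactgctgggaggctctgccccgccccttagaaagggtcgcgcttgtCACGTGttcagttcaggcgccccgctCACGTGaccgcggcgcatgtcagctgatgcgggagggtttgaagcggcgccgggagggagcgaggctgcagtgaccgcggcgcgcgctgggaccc
Atp6v0b: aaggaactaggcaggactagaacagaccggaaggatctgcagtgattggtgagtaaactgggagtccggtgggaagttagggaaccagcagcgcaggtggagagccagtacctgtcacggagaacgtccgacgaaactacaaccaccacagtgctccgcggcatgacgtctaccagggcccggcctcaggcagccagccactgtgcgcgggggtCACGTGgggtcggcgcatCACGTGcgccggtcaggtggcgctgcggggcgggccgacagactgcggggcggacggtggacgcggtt
The Lamp1 window holds 4 copies, and the Mcoln1 and Atp6v0b windows hold 2 each.

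Across the named genes, FAD5x replicate 2 was mostly the lowest FAD5x library. It was the lowest of the 3 FAD5x libraries in 17 of the 22 named genes, or 77.3%, against 37.9% of all tested genes, and FAD5x replicate 1 was the highest in 18. The median log2 deviation of the named genes from their Control mean was 0.46, 0.03 and 0.26 in FAD5x replicates 1 to 3, against -0.03, 0.10 and -0.07 in Control 1 to 3. Without FAD5x replicate 2, 8 of the 22 were called higher, namely Cd68, Laptm5, Hexa, Gusb, Npc2, Cd63, Grn and Man2b1, and 0 lower, where 3.41% of all tested genes were called higher and 2.18% lower. Without any other single library 0 were called. The median log2 fold change of the named genes was 0.26 with all libraries, 0.31 without FAD5x replicate 2 and 0.11 without FAD5x replicate 1.

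Within FAD5x, the summed markers of microglia and of oligodendrocytes had the order of the named genes, replicate 1 highest and replicate 2 lowest. In Control the oligodendrocyte sum was highest in replicate 3, where the median deviation of the named genes was lowest. The sum of 8 astrocyte markers was 6895, 4721 and 4143 CPM in FAD5x, against 4518, 6468 and 4812 CPM in Control, and had another order. Single astrocyte markers were split. Gfap, Slc1a3 and Aqp4 had the order of the named genes, and Aldh1l1, Slc1a2, Gja1, Aldoc and Sox9 were lowest in FAD5x replicate 3. Gfap had 1508, 129 and 914 CPM in FAD5x, against 193, 169 and 119 CPM in Control (log2 2.41 ± 0.81, edgeR adjusted p = 0.168). The summed level of 12 microglial markers was 696, 369 and 507 CPM in FAD5x replicates 1 to 3, against 360.0, 481 and 313 CPM in Control 1 to 3, with no marker at 0. Of these markers edgeR called 0 in either direction, with 6 higher and 1 lower at an unadjusted p below 0.05. DESeq2 called 2 higher and 1 lower, and limma-voom 0. The summed level of 8 oligodendrocyte markers was 7609, 3899 and 5099.6 CPM in FAD5x, against 2809, 3254 and 4142 CPM in Control. All 8 were above 0 on the log2 scale, and 1 of them, the myelin gene Mobp, rose (log2 1.09 ± 0.24, edgeR adjusted p = 0.0474), with 3 higher and 0 lower at an unadjusted p below 0.05. These were 12.5% called and 37.5% higher at the unadjusted p, beside 1.76% and 11.2% of all tested genes. DESeq2 called 3 higher, and limma-voom 0. The part of any of these cell types in the lysosomal differences was not tested. In whole cortex, a change in the number of cells of a type and a change in the RNA of each cell cannot be told apart.

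**Figure D3:**
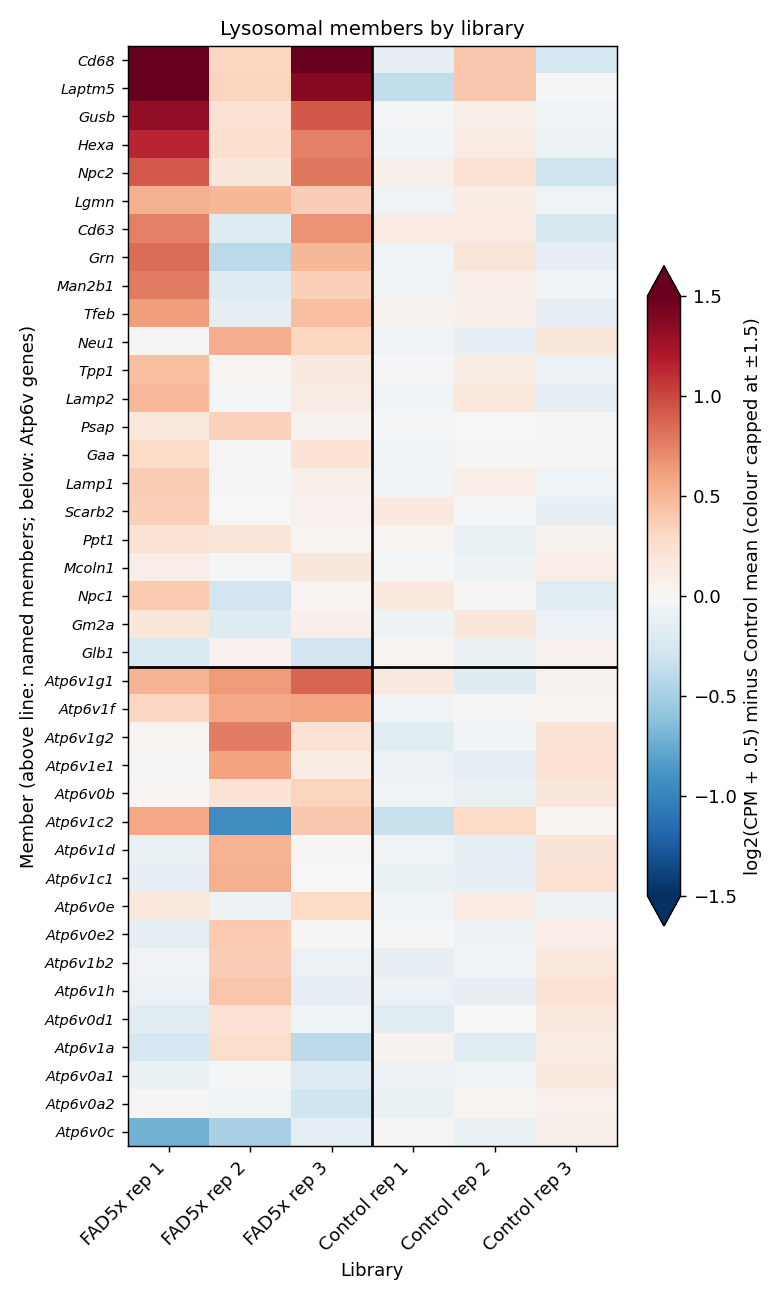
Log2(CPM + 0.5) minus the Control mean for the 39 tested lysosomal genes (rows) in each library (columns, FAD5x left), named genes above the line and Atp6v genes below it; colours are capped at 1.5. The named genes are red mainly in FAD5x replicates 1 and 3, and most pump genes are reddest in FAD5x replicate 2.

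The proton pump had a different order of libraries. Of the 17 tested Atp6v genes, 10 were highest, among the FAD5x libraries, in replicate 2, or 58.8% against 36.8% of all tested genes. For the 10 tested V1 genes the median log2 deviation from Control was -0.04, 0.53 and 0.06 in FAD5x replicates 1 to 3, against -0.09, -0.12 and 0.18 in Control 1 to 3. The summed level of 8 neuronal markers was likewise highest in FAD5x replicate 2 and, within Control, in replicate 3. It was 4997, 7720.1 and 4835 CPM in FAD5x, against 4599, 4799 and 5750.4 CPM in Control. The part of neuronal RNA in the pump values was not tested.

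In the V1 sector 1 of 10 tested genes rose and edgeR called 0 lower, with 2 higher and 0 lower at an unadjusted p below 0.05. DESeq2 called 2 higher and 0 lower, and limma-voom called 0. The gene that rose was Atp6v1g1, the widely expressed form of the G subunit, part of the stalk that joins V1 to V0. It had 58.2, 63.7 and 75.3 CPM in FAD5x, against 44.8, 36.1 and 42.3 CPM in Control, and the groups did not overlap. The mean was 65.8 ± 8.73 CPM in FAD5x, against 41.0 ± 4.48 CPM in Control (SD, n = 3 each), or 1.602-fold (log2 0.68 ± 0.14, edgeR adjusted p = 0.0425). The call held without FAD5x replicate 2 (adjusted p = 0.0353). It ended without FAD5x replicate 1 (0.0649) or 3 (0.0699) and without Control replicate 1 (0.127), 2 (0.168) or 3 (0.129). Over the 14 alternatives its log2 fold change was 0.57 to 0.76 and its adjusted p 0.00384 to 0.168.

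Atp6v1f, the F subunit of the rotating shaft, was similar in size. It had 49.9, 60.1 and 61.0 CPM in FAD5x, against 38.8, 40.7 and 41.3 CPM in Control, with no overlap. Its log2 fold change was 0.50 ± 0.12 (edgeR adjusted p = 0.0672, and 0.0228 by DESeq2). In these 2 V1 genes all 3 FAD5x libraries were above Control, and FAD5x replicate 3 was the highest. They were the only such genes of the 17 tested Atp6v genes, or 11.8%, beside 14.1% of all tested genes.

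The remaining V1 genes overlapped between the groups. Atp6v1g2, the neuronal form of the G subunit, had 269, 445 and 303 CPM in FAD5x, against 234, 254 and 301 CPM in Control (log2 0.37 ± 0.21, edgeR adjusted p = 0.358). Per length, Atp6v1g1 made up 32.4%, 24.04% and 35.5% of the 2 G transcripts together in FAD5x replicates 1 to 3, against 29.7%, 23.9% and 23.7% in Control 1 to 3, so the shares overlapped. Atp6v1a, the catalytic A subunit, was at -0.10 ± 0.19, and Atp6v1b2, its nucleotide-binding partner, at 0.09 ± 0.18 (edgeR adjusted p = 0.802 and 0.824). Atp6v1e1, Atp6v1d, Atp6v1c1 and Atp6v1h, which encode stalk, shaft and regulatory subunits, lay between 0.07 and 0.25. Atp6v1c2, a minor form of the C subunit at 2.21 ± 1.26 CPM in FAD5x, against 1.97 ± 0.522 CPM in Control (SD, n = 3 each), was at 0.17 ± 0.51. Without FAD5x replicate 2 the median of the tested Atp6v genes was -0.04, against 0.13 with all libraries, so its sign rested on that library.

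In the V0 sector edgeR called 0 of 7 tested genes, with 0 higher and 1 lower at an unadjusted p below 0.05, and DESeq2 and limma-voom called 0. The 1 lower was 14.3%, beside 10.1% of all tested genes. The median log2 fold change was -0.00. Atp6v0a1, the large membrane subunit typical of neurons, was at -0.11 ± 0.14, and Atp6v0d1, which couples the rotor to V1, had 168, 220 and 181 CPM in FAD5x, against 170, 190 and 210 CPM in Control. Atp6v0a2, Atp6v0b, Atp6v0e and Atp6v0e2 lay between -0.11 and 0.19, each with overlapping groups.

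Atp6v0c was the V0 gene with the largest difference. It encodes the proteolipid that forms most of the proton-carrying ring. It had 73.4, 86.2 and 110 CPM in FAD5x, against 122, 113 and 128 CPM in Control, and every FAD5x library was below every Control library, as in 13.2% of all tested genes. Its log2 fold change was -0.43 ± 0.16 (edgeR adjusted p = 0.180), between -0.60 and -0.30 without single libraries. This count is uncertain, because a processed copy of the gene, Atp6v0c-ps2, differs from it at 1 of 465 bases of coding sequence and had more counts than the gene itself. Atp6v0c-ps2, singled out after its values were seen, had 254, 336 and 198 CPM in FAD5x, against 169, 186 and 180 CPM in Control (log2 0.56 ± 0.19, edgeR adjusted p = 0.150). The sum of gene and copy was 327, 423 and 308.0 CPM in FAD5x, against 290, 299 and 308 CPM in Control, so the lower level of Atp6v0c was not seen in the sum. The copy held 77.6%, 79.6% and 64.4% of that sum in FAD5x and 58.0%, 62.4% and 58.5% in Control.

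The stretch around the single difference, positions 66 to 155 counted from the first base of the start codon, is shown because the rest of the 465 bases is identical in both transcripts. It comes from the GENCODE M21 transcripts, along the coding strand, and the capital marks T111C, from the gene on chromosome 17 to the copy on chromosome 6.
Atp6v0c: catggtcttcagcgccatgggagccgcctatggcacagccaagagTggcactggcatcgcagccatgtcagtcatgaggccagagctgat
Atp6v0c-ps2: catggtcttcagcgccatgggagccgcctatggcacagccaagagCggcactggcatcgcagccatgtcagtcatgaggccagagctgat
The treatment of reads that map equally well to both loci is not stated in any source used here.

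**Figure D4:**
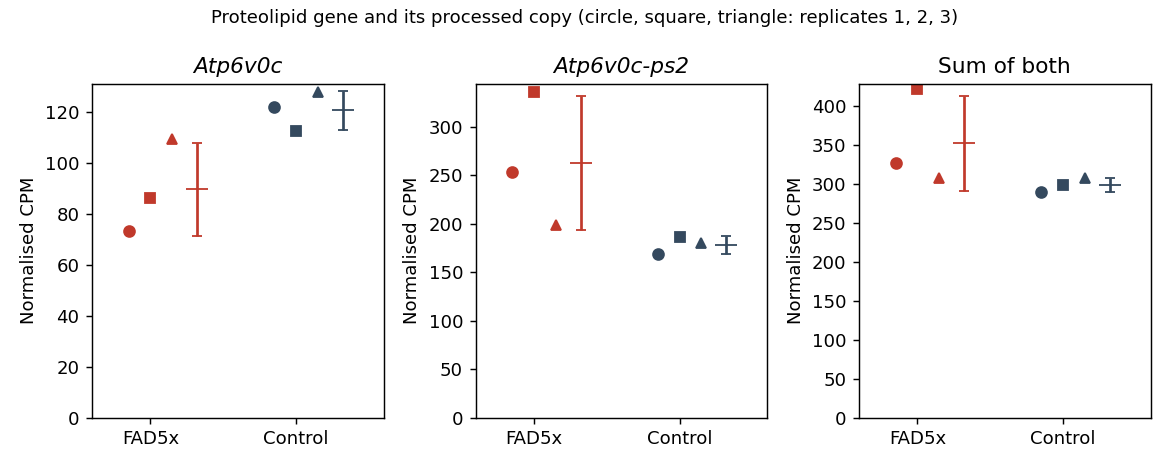
Normalised CPM of Atp6v0c, its processed copy Atp6v0c-ps2 and their sum, by library, FAD5x left and Control right, with the mean and SD beside each group. The gene is lower in all 3 FAD5x libraries, the copy higher in all 3, and the sum in FAD5x replicate 3 lies at the Control level of 308.

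The same check was made for the other pump genes. For Atp6v1f it found AC169506.3, a processed pseudogene alike at 98.5% of 202 aligned bases, which is not among the genes read and so has no counts here. Atp6v1g1 has 2 processed copies, of which Gm12344 had at most 4 counts in any library. The other, Gm13453, differs at 2 of 357 coding bases, G92A and C182A. This copy had only 1.53, 1.21 and 1.62 CPM in FAD5x, against 0.0551, 0.281 and 0.112 CPM in Control, and it was singled out after its values were seen. It passed the filter on low counts through the FAD5x libraries, in which it was high, so its levels are given without a test. It held 1.87% to 2.55% of the summed counts of gene and copy in FAD5x and 0.123% to 0.773% in Control. The sum was 67.2 ± 8.82 CPM in FAD5x, against 41.2 ± 4.36 CPM in Control (SD, n = 3 each), close to that of Atp6v1g1 alone.

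Levels per exon length order the pump subunits in cortex. In FAD5x cortex Atp6v1g2 stood at 135 ± 37.2, Atp6v0e2 at 121 ± 23.9, Atp6v1b2 at 109 ± 20.3 and Atp6v0d1 at 106 ± 15.1 normalised CPM per kilobase of exon (SD, n = 3). In Control these 4 stood at 105 ± 13.6, 113 ± 7.14, 103 ± 10.5 and 106 ± 11.3 in the same order, and neighbours did not differ beyond their spread. Atp6v0b, Atp6v0a1, Atp6v1e1 and Atp6v1a followed, at 61.8 to 78.1 in FAD5x, against 58.5 to 78.9 in Control. Atp6v1g1 and Atp6v1f came next in FAD5x, at 57.9 ± 7.69 and 53.6 ± 5.78, and were at 36.2 ± 3.95 and 37.8 ± 1.23 in Control, beside Atp6v0c at 26.5 ± 5.41 in FAD5x, against 35.7 ± 2.25 in Control. The Atp6v0c level leaves out the counts assigned to its copy Atp6v0c-ps2, so its place in this order is uncertain. Atp6v0a1 held 87.0% to 88.6% of the length-scaled counts of Atp6v0a1 and Atp6v0a2 together in FAD5x and 87.1% to 88.5% in Control. Atp6v0e2 far exceeded its relative Atp6v0e, which held 3.77% to 6.29% of their sum in FAD5x and 4.59% to 5.93% in Control.

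**Figure D5:**
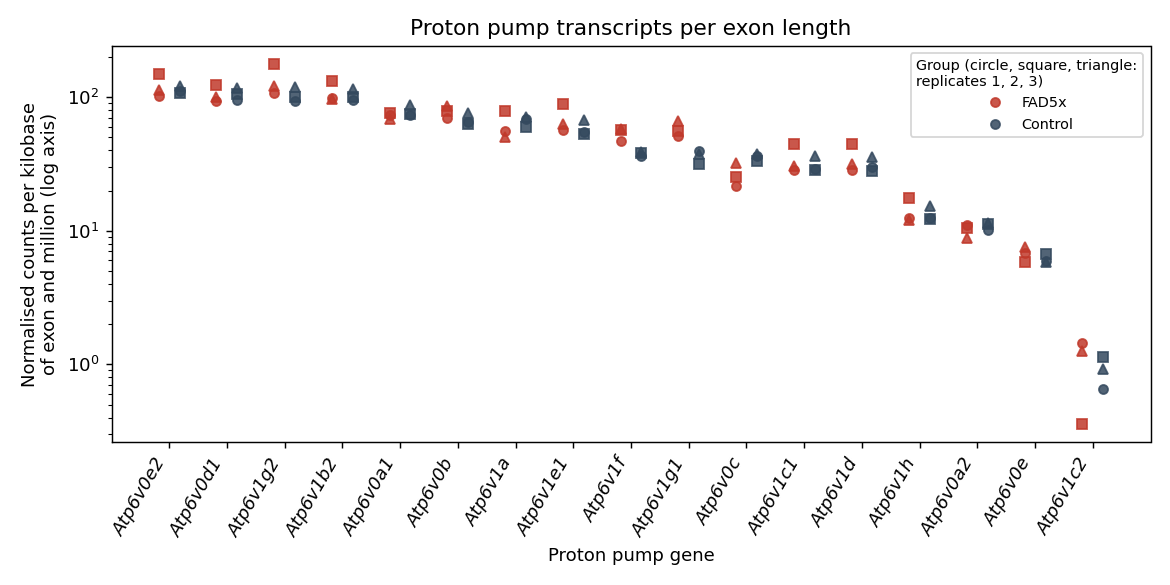
Normalised CPM per kilobase of exon (log axis) of the 17 tested Atp6v genes in each library, FAD5x left and Control right in each column, genes ordered by their Control mean. Atp6v0e2, Atp6v0d1, Atp6v1g2 and Atp6v1b2 lie near 100, Atp6v1c2 near 1, and for Atp6v1g1 and Atp6v1f the FAD5x points lie above the Control points.

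Of the 6 Atp6v genes that did not pass the filter, all but Atp6v1fnb are subunit forms typical of other tissues or cells. Atp6v1e2, Atp6v1g3 and Atp6v1fnb, which is named for its neighbour Atp6v1f and is no pump subunit by name, had 0 counts in all 6 libraries. A count of 0 allows a level of up to 0.124 to 0.173 CPM, taken as 3 counts of each library's total and covering counting error only. Atp6v0a4 and Atp6v1b1, forms of kidney intercalated cells, had at most 12 and 17 counts in any library. Atp6v0d2, the d subunit form of osteoclasts and macrophages, had 36, 0 and 13 counts in FAD5x replicates 1 to 3 and 0, 1 and 0 counts in Control. It followed the order of Cd68, with FAD5x replicate 2 at 0. Fits that kept this gene did so through the FAD5x libraries in which it was high, so the counts are given without a test.

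Among other genes of the pathway, a transporter and an ion channel rose. Of 26 other lysosomal membrane proteins tested 2 rose and 0 were called lower by edgeR, with 6 higher and 2 lower at an unadjusted p below 0.05. That was 7.69% called higher, beside 1.76% of all tested genes. At the unadjusted p it was 23.1% higher and 7.69% lower, beside 11.2% and 10.1%. DESeq2 called 4 higher and 1 lower, and limma-voom 1 higher and 0 lower. Slc11a1, a metal transporter of phagosomes in macrophages, had 13.3, 4.70 and 10.7 CPM in FAD5x, against 1.32, 2.08 and 2.01 CPM in Control, or 5.29-fold (log2 2.40 ± 0.41, edgeR adjusted p = 0.0226). Tmem63a, a mechanosensitive ion channel, had 51.5, 25.05 and 40.3 CPM in FAD5x, against 12.3, 13.4 and 16.6 CPM in Control, or 2.76-fold (log2 1.46 ± 0.26, edgeR adjusted p = 0.0272). In both genes FAD5x replicate 2 was the lowest FAD5x library yet above Control. Both calls were lost when FAD5x replicate 1, or a single Control library, was left out. Of the 5 pathway lists these 2 were the only genes called with all libraries by edgeR.

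Of 25 other hydrolases tested edgeR called 0, with 3 higher and 0 lower at an unadjusted p below 0.05, DESeq2 called 2 higher and limma-voom 0, and the median was 0.23. The most abundant was Ids, iduronate sulfatase, at 462 ± 106 CPM in FAD5x, against 433 ± 93.3 CPM in Control (SD, n = 3 each; log2 0.09 ± 0.23, edgeR adjusted p = 0.852).

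Accessory and assembly factors of the pump, 14 genes, had a median of -0.01, and edgeR called 0 (1 higher by DESeq2, 0 by limma-voom). At an unadjusted p below 0.05, 1 was higher and 1 lower, or 7.14% each, beside 11.2% and 10.1% of all tested genes. Atp6ap1, the accessory subunit of V0, had 265 ± 17.7 CPM in FAD5x, against 264 ± 20.05 CPM in Control, and Oxr1, a TLDc-domain regulator of the pump, 236 ± 60.2 CPM in FAD5x, against 237 ± 40.0 CPM in Control (SD, n = 3 each). Tcirg1, the a subunit form of osteoclasts and macrophages, singled out after its values were seen, had 27.1, 10.8 and 24.2 CPM in FAD5x, against 14.97, 16.1 and 12.2 CPM in Control (log2 0.52 ± 0.32, edgeR adjusted p = 0.401). FAD5x replicate 2 was the lowest of all 6 libraries there. Tcirg1 was called without that library and under no other alternative. That call adds no evidence, because the gene was picked with these values known.

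Of 17 tested genes for transcription and nutrient control of lysosomes edgeR called 0 (1 higher by DESeq2, 0 by limma-voom), and the median was 0.01. At an unadjusted p below 0.05, 1 was higher, or 5.88% beside 11.2% of all tested genes, and 0 lower. Rragd, a Rag GTPase, was at -0.20 ± 0.18 and Mtor, the nutrient-sensing kinase, at -0.28 ± 0.13 (edgeR adjusted p = 0.566 and 0.248). Of 17 genes for sorting of hydrolases edgeR called 0 (1 higher by DESeq2, 0 by limma-voom), and the median was 0.18. At an unadjusted p below 0.05, 4 were higher, or 23.5% beside 11.2% of all tested genes, and 0 lower. In this list 13 of 17 were above 0. In 8 of them the groups did not overlap, with FAD5x higher, or 47.1% beside 14.1% of all tested genes. The most abundant of the list were Sort1, a sorting receptor that also binds progranulin, and Vps35, a retromer subunit. They were at -0.03 ± 0.18 and -0.22 ± 0.15 (edgeR adjusted p = 0.955 and 0.460).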

How the data were processed

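The authors deposited 1 table of raw counts per gene, 47729 lines with 1 column for each of the 6 cortex libraries, and 1 line with a cell that is not a number was left out. The tools, per the submitters' processing notes, included STAR 2.7.11b, cutadapt and featureCounts, beside limma and edgeR 3.38.4, on the mouse build GRCm39, and strandedness, parameters and library preparation are not given in the sources used here. Columns were assigned by the names that the labels give the libraries. Symbols, gene types and exon lengths came from GENCODE M21 on GRCm38, matched by identifier for 47309 genes, so lengths are approximate and no coordinates of the files' build are given.

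For the comparison, these counts went into edgeR 4.0.16 (R 4.3.3; filterByExpr, trimmed mean of M values, robust quasi-likelihood F-test, genotype only, two-sided). SE is the log2 fold change divided by the root of F. Deviations from Control used log2(CPM + 0.5). The steps were tested on simulated data. DESeq2 1.42.0, limma-voom (limma 3.58.1), other scalings and filters, a replicate block and libraries left out were alternatives. Copies were sought with blastn 2.17.0 at an identity of at least 95% over at least 150 bases and 50% of either transcript. Genes and lists were chosen with earlier results of these data known. Full values are given for genes called or with an unadjusted p below 0.05, and for Tfeb and Mcoln1; of each pathway list, for called genes or, with none, the 2 with the highest mean, of which 1 is not reported here. Values of other genes were added after they were seen. Some lysosomal genes share short exon stretches with genes on the other strand, such as Hexa with Tmem202 and Grn with Fam171a2, and without strand their reads cannot be told apart.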

Additional observations from a re-analysis of the deposited data

How the results depend on the processing

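All 45 lysosomal genes depend on 3 libraries per group, and leaving out 1 library moved the count of called genes from 537 over all genes to between 81 and 989. Leaving out single libraries gave 0 to 10 lysosomal genes called, 0 to 2 Atp6v genes, 0 to 8 named genes and 0 to 9 pathway genes, with the highest counts in each case without FAD5x replicate 2, Atp6v0d2 among them, which passed the filter there through the FAD5x libraries in which it was high. DESeq2 called 1485 genes in all, 7 lysosomal genes, 2 Atp6v genes, 5 named genes and 10 pathway genes. With no filter on low counts the calls were 1063 in all, 3 lysosomal, 2 named and 5 pathway genes. Limma-voom called 438 genes in all, 0 lysosomal, 0 Atp6v and 1 pathway gene, and library totals alone 432 in all, 0 lysosomal and 0 Atp6v genes. With FAD5x replicates 1 and 2 summed as 1 sample the calls were 715 in all. Among them were, again with Atp6v0d2, 6 lysosomal, 2 Atp6v, 4 named and 4 pathway genes. A replicate block, with replicate numbers whose libraries did not deviate together (correlations of -0.04, -0.09 and -0.31), called 72 genes in all, 0 lysosomal, 0 Atp6v and 0 pathway genes. The cause of these shifts was not tested. The calls of Atp6v1g1 with limma-voom (adjusted p = 0.0522), library totals (0.0847) and the block (0.135) were lost. Of 546 values of single genes under alternatives, 499 kept their direction and side of the threshold, 20 became called, 8 lost their call and 19, in 10 genes never called, changed sign. Their log2 fold changes without single libraries ran from -0.053 to 0.12 for Gm2a, -0.12 to 0.23 for Npc1, -0.11 to 0.080 for Atp6v0d1, -0.050 to 0.22 for Atp6v0e2, -0.32 to 0.026 for Atp6v1a, -0.068 to 0.17 for Atp6v1b2, -0.063 to 0.28 for Atp6v1c1, -0.18 to 0.58 for Atp6v1c2, -0.039 to 0.29 for Atp6v1d and -0.12 to 0.19 for Atp6v1h. Atp6v0d1 was at 0.0042 with no filter, Atp6v1c2 at -0.013 with limma-voom and Atp6v1h at -0.00073 with the summed sample.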

Other observations

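Markers of border macrophages, phagocytes of the meninges and vessel walls that are also rich in lysosomes, did not move as one in FAD5x cortex. Of 5 tested markers edgeR called 0, with 3 lower and 0 higher at an unadjusted p below 0.05, while DESeq2 called 3 lower and limma-voom 0. Lyve1, a hyaluronan receptor, had 0.206, 0.436 and 0.679 CPM in FAD5x, against 1.93, 1.74 and 1.40 CPM in Control, with at most 35 counts in any library. It is among the 3 lower markers but passed the filter on low counts through the Control libraries, in which it was high. Its levels are thus given without a test. Mrc1, the mannose receptor, had 2.14, 1.26 and 1.83 CPM in FAD5x, against 6.72, 7.19 and 1.96 CPM in Control (log2 -1.59 ± 0.49, edgeR adjusted p = 0.118), with Control replicate 3 apart from the other Control libraries. Cbr2, a carbonyl reductase and also among the 3, had 0.660, 0.242 and 1.20 CPM in FAD5x, against 1.98, 5.17 and 1.23 CPM in Control. It had at most 92 counts in any library. Cbr2 too needed the Control libraries, in which it was high, to pass the filter, so its levels are given without a test. Cd163, a scavenger receptor, and Pf4, a chemokine, were at 0.04 ± 0.58 and 0.19 ± 0.49 (edgeR adjusted p = 0.981 and 0.860). The summed level of the list was 10.8, 3.73 and 7.16 CPM in FAD5x, against 15.8, 19.2 and 7.16 CPM in Control, and it overlapped between the groups.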
